A study of Mus musculus with 4 samples.

Results

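The 10 replication licensing genes described here are Mcm2, Mcm3, Mcm4, Mcm5, Mcm6, Mcm7, Mcm10, Cdt1, Cdc6 and Gmnn, chosen by name among the 20065 genes of an RNA-seq table of cultured muscle stem cells (MuSC, satellite cells). All 10 were in the table and all 10 passed the filter on low counts. The cells came from limb and trunk muscles of adult C57BL/6 mice. The 2 Ctrl libraries were from Pax7CreERT2/Prmt5+/loxP animals and the 2 Prmt5sKO libraries from Pax7CreERT2/Prmt5loxP/loxP animals, both labelled as TAM treated. The sample titles call the Ctrl libraries WT. By the genotype given above, Ctrl cells also carried the Cre driver and 1 floxed Prmt5 allele. The tamoxifen-dependent Cre is expressed only where the Pax7 promoter is active. The sequenced cells had been treated in culture with 4-OH-TAM, the active form of tamoxifen. No source used here says whether the 2 libraries of a group came from separate animals, so the p-values measure only the spread between these libraries.

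DNA replication origins are licensed in G1. The origin recognition complex binds DNA, Cdc6 joins it, and Cdt1 brings the ring of Mcm2 to Mcm7, the inactive replicative helicase, which is loaded as a double hexamer. Geminin, the product of Gmnn, binds Cdt1 after the onset of S phase and prevents a second round of loading, while Mcm10 acts after loading, when the helicase is switched on. The genes are known targets of E2F transcription factors in many cell types, and their RNA is low in quiescent satellite cells and high once the cells divide.

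The letters that E2F factors are known to bind lay near the starts of several of these genes, and 3 stretches are shown because they hold them outside annotated exons. RefSeq windows around the transcription start (build GRCm38.p6) were found for 8 of the 10 genes, 9 windows in all, and none for Mcm4 and Gmnn. The 4 spellings TTTCGCGC or TTTGGCGC or TTTCCCGC or TTTGCCGC were searched on both strands. At least 1 was present in 6 of the 8 genes, Cdc6, Cdt1, Mcm3, Mcm5, Mcm6 and Mcm7, while 2.26% of 32851 windows of the same length held one. The genes were counted once if any of their windows held a match, while the share over all windows counts each window. The stretches are written 5′ to 3′ on the strand of the gene, with the matched letters in capitals.
Cdc6, chr11:98907988-98908045, plus strand, inside an annotated intron of Cdc6: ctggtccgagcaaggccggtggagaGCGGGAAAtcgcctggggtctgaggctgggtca
Mcm5, chr8:75109331-75109392, plus strand, before the gene: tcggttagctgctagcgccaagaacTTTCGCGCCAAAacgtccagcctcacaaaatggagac
Mcm6, chr1:128359720-128359840, minus strand, before the gene: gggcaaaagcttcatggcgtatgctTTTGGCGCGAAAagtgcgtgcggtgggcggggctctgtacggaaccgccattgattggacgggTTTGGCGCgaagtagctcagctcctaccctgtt

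In Mcm5 and in the first block of Mcm6 the capitals are a pair of matches on opposite strands that overlap by 4 bases, and Mcm6 holds a further match closer to the start. In Cdt1 the match began 33 bases into the transcript and in Mcm3 the matches began 20 and 39 bases into it. In Mcm7 they began 17 bases into it and at position -165 before it. The stretches of these 3 genes ran past the transcription start and are not shown. No match to these letters was found in the windows of Mcm2 and Mcm10. CCAAT was present in 6 of the 8 genes against 37.4% of all windows, the GC box GGGCGG in 6 of 8 against 35.7%, and the CHR letters TTTGAA or TTCGAA in Mcm2 and Mcm7 against 19.2%. These are matches of letters, and binding at them was not measured.

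**Figure D1:**
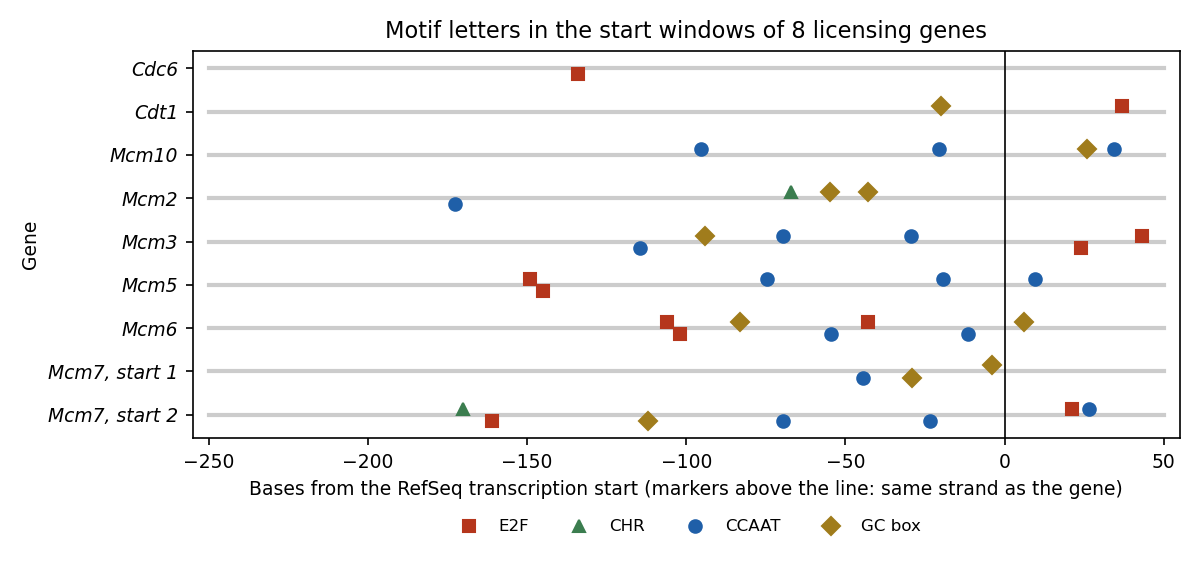
Positions of the searched letters in the 9 RefSeq start windows of 8 genes, with bases from the transcription start on the x axis and 1 line per window. Markers above a line are on the strand of the gene and those below it on the other strand, and the window of Mcm7 called start 2 lies upstream of start 1. E2F letters appear in 6 of the 8 genes.

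Recovered read counts summed to between 13240754 and 20047430 per library, and the 10 genes had between 159 and 4307 reads each in every library. Prmt5, the deleted gene, was at 2223 and 2843 counts in Ctrl and at 238 and 198 in Prmt5sKO after TMM normalization, the deeper library of each group first. The shallower Prmt5sKO library stood apart. Its 8 markers of differentiating muscle summed to 200587 normalized counts, against 15283 in the other Prmt5sKO library and 9982 and 5618 in Ctrl. The rise was thus largest in 1 library but not confined to it. The list had a median log2 fold change of 2.73. In limma-voom 2 of the 8 were higher at an unadjusted p under 0.05, against 6.03% of all genes tested. Myog had 1405 and 1163 in Ctrl and 3626 and 19084 in Prmt5sKO, while the groups of Tnni1 overlapped. The 8 markers of satellite cells and myoblasts were present in every library, with Pax7 between 2514 and 3584 and Myod1 between 11888 and 15210, and had a median log2 fold change of 0.04. The list summed to 74929 in the shallower Prmt5sKO library and to 44042 to 51829 in the others, since Des, at 31471 against 12241 to 14581, Itga7, at 14544 against 7471 to 8981, and Cdh15, at 4538 against 1435 to 2611, were high there, while Myf5 was at 1594 and 1733 in Ctrl and 1277 and 1225 in Prmt5sKO. Markers of fibroblasts, endothelium, blood cells and glia summed to at most 383 per list in any library, with Lum at 0 in 3 libraries, Cdh5, Sox10 and Itgam at 0 in 1 each, and Ptprc, Adgre1 and Emcn not listed. The endothelial list summed to 108 and 133 in Ctrl and 46.4 and 26.6 in Prmt5sKO, lower in the same direction as the licensing genes, with Kdr at an unadjusted p of 0.0194 with limma-voom. The list of smooth muscle and pericytes summed to 3061 and 1644 in Ctrl and 4561 and 5637 in Prmt5sKO, nearly all from Rgs5 and Cspg4. The part of these lists in the results that follow was not tested.

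For all 10 licensing genes both Prmt5sKO values lay below both Ctrl values, at a fitted median of 41.1% of the Ctrl level. The median log2 fold change (Prmt5sKO over Ctrl) was -1.28 over the 10 genes and 0.02 over all 16153 genes tested. Groups that did not overlap in this direction were seen for 23.6% of all genes tested, and a fitted fold of at least 2 in this direction for 8.99%, against 10 of the 10 genes in both cases. When limma-voom p-values were adjusted by Benjamini-Hochberg across all genes, 0 of the 10 and 0% of all genes passed an adjusted p of 0.05 with a 2-fold change, and 2100 genes had an unadjusted p under 0.05. That unadjusted threshold was passed in the lower direction by 10 of the 10 genes and by 6.97% of all genes tested. The 10 genes and the other gene lists used here were chosen with earlier results of these data known, so such shares are descriptions only. The adjusted p of the 10 genes lay between 0.198 and 0.276, beside 0.193 for Prmt5, the smallest of any gene, with a log2 fold change of -3.52 (SE 0.27). The paper, using DESeq2, reports genes up or down at a false discovery rate under 0.05 after Prmt5 inactivation. By gene ontology it links them to DNA replication, DNA metabolism and control of the cell cycle. Whether the 10 genes are among them was not examined. The count of 0 belongs to this limma-voom fit and changed with the pairing of the libraries, as given in the last section. In these bulk samples, fewer dividing cells and less licensing RNA per cell cannot be told apart.

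**Figure D2:**
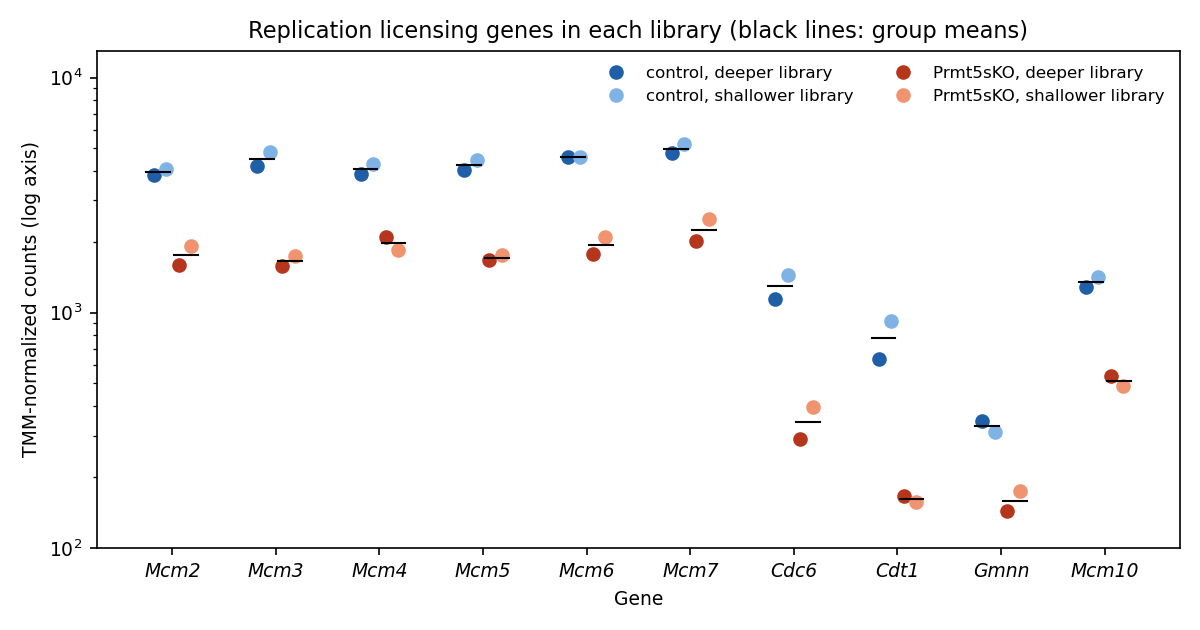
TMM-normalized counts of the 10 genes (log axis) in each of the 4 libraries, with black lines at the group means. For every gene both Prmt5sKO points lie below both Ctrl points, with the widest gap at Cdt1 and the narrowest at Gmnn.

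Among the subunits of the helicase, Mcm2 (ENSMUSG00000002870, chr6:88883474-88898780, minus strand, GRCm38) was at 3848 and 4066 normalized counts in Ctrl and at 1590 and 1916 in Prmt5sKO, with the deeper library of each group first here and in the values that follow. Mcm3 (ENSMUSG00000041859, chr1:20802968-20820312, minus strand) had 4204 and 4846 in Ctrl and 1583 and 1736 in Prmt5sKO. Mcm2 forms, with Mcm5, the gate through which DNA enters the ring, and Mcm3 carries the contact with Cdc6 and the origin recognition complex. The fitted log2 fold change was -1.18 (SE 0.21, 95% interval -1.69 to -0.67) for Mcm2 and -1.45 (SE 0.20, -1.94 to -0.95) for Mcm3, the most negative of the 6 subunits.

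Mcm4 (ENSMUSG00000022673, chr16:15623897-15637400, minus strand), a main substrate of the Cdc7 kinase, had 3873 and 4277 normalized counts in Ctrl and 2103 and 1839 in Prmt5sKO. Its log2 fold change of -1.05 (SE 0.20, -1.55 to -0.55) was the least negative of the 10 genes, and unlike in the other subunits the deeper Prmt5sKO library held the higher value. For Mcm5 (ENSMUSG00000005410, chr8:75109569-75128439, plus strand), the other side of the gate, the values were 4063 and 4458 in Ctrl and 1677 and 1756 in Prmt5sKO, a log2 fold change of -1.31 (SE 0.20, -1.79 to -0.83). The groups of both genes were far apart compared with the spread within them.

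Mcm6 (ENSMUSG00000026355, chr1:128331590-128359664, minus strand), through which Cdt1 is known to hold the ring, had 4605 and 4612 normalized counts in Ctrl and 1777 and 2095 in Prmt5sKO, a log2 fold change of -1.26 (SE 0.20, -1.75 to -0.76). Its Ctrl libraries were the closest of any member. Mcm7 (ENSMUSG00000029730, chr5:138164583-138172422, minus strand) had 4761 and 5215 in Ctrl and 2021 and 2495 in Prmt5sKO, a log2 fold change of -1.15 (SE 0.21, -1.67 to -0.63). Exons of Mcm7 overlap those of Ap4m1 and Cops6 and the precursors of Mir25 and Mir93, and whether the counting used strand is not given in the sources used here, so its value may hold reads of these genes.

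The 2 loading factors were lower than the helicase subunits in relative terms. Cdt1 (ENSMUSG00000006585, chr8:122568015-122573554, plus strand) had 633 and 924 normalized counts in Ctrl and 166 and 156 in Prmt5sKO, a fitted 21.3% of the Ctrl level. Its log2 fold change was -2.23 (SE 0.32, -3.01 to -1.45), and 1.48% of all genes tested had a value as low or lower. Cdc6 (ENSMUSG00000017499, chr11:98907801-98923940, plus strand), an ATPase that closes the loading complex, had 1142 and 1445 in Ctrl and 289 and 395 in Prmt5sKO, a fitted 26.0% of the Ctrl level. Its log2 fold change was -1.94 (SE 0.27, -2.60 to -1.28). The Ctrl values of Cdt1 were the most spread of the 10 genes, 0.54 log2 units apart, and even so the lower of them was 3.82 times the higher Prmt5sKO value.

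Gmnn (ENSMUSG00000006715, chr13:24751845-24761923, minus strand), which encodes the inhibitor of loading, had 346 and 312 normalized counts in Ctrl and 143 and 174 in Prmt5sKO. Its log2 fold change of -1.08 (SE 0.29, -1.80 to -0.36) had the largest unadjusted p of the 10 genes, 0.0104 with limma-voom, and its groups were the closest, 1.79-fold apart between the lowest Ctrl and the highest Prmt5sKO value. Mcm10 (ENSMUSG00000026669, chr2:4989714-5012791, minus strand), a scaffold of the starting replication fork that is no part of the ring, had 1281 and 1425 in Ctrl and 539 and 486 in Prmt5sKO. Its log2 fold change was -1.39 (SE 0.21, -1.91 to -0.87).

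The libraries of a group differed little beside the distance between groups. Over the 10 genes, the median signed difference, shallower minus deeper library, was 0.14 log2 units in Ctrl and 0.19 in Prmt5sKO. Genes of opposite sign offset each other in these medians. The largest differences were 0.54 for Cdt1 in Ctrl and 0.45 for Cdc6 in Prmt5sKO. Relative to the Ctrl mean, the 10 genes had a median of -1.33 in the deeper Prmt5sKO library and of -1.21 in the shallower one, which held the highest muscle differentiation markers. Without the shallower Prmt5sKO library the median log2 fold change of the 10 genes was -1.33. Without the deeper Prmt5sKO library it was -1.21. In both fits the lone library was assumed to vary like the Ctrl libraries.

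Markers of cycling cells moved with the licensing genes. All 8, among them Mki67 and Top2a, had Prmt5sKO values under both Ctrl values, 6 of them at an unadjusted p under 0.05, with a median log2 fold change of -0.90. Over all genes tested, the shares in this direction were 23.6% without overlap and 6.97% at that p. They summed to 27518 and 31910 normalized counts in Ctrl and 15341 and 14230 in Prmt5sKO. The part of the cycling markers in the lower licensing genes was not tested.

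**Figure D3:**
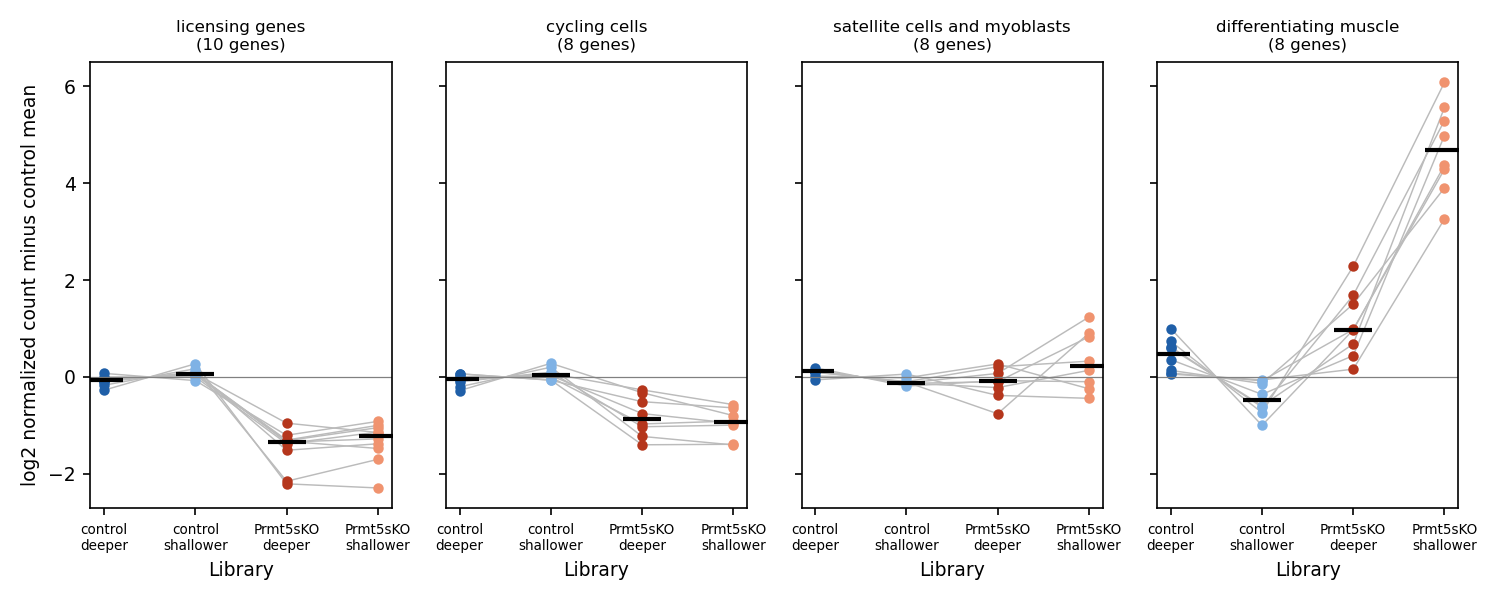
Each grey line is 1 gene, plotted as its log2 normalized count in each library minus its Ctrl mean, for the 10 licensing genes and 3 marker lists of 8 genes, with black bars at the list medians. The licensing genes are at -1.33 and -1.21 in the Prmt5sKO libraries, while the differentiating muscle genes stand apart in the shallower Prmt5sKO library.

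Per kilobase of annotated exon, the Mcm2 to Mcm7 transcripts were more abundant than those of the factors that act on them. In Ctrl the level per kilobase was highest for Mcm3, 1206 ± 121 (SD, n = 2), followed by Mcm4 with 1135 ± 79.6, Mcm7 with 1127 ± 72.5, Mcm5 with 1067 ± 70.0, Mcm6 with 988 ± 0.924 and Mcm2 with 569 ± 22.2. Cdt1 was at 248 ± 65.3, Cdc6 at 247 ± 41.0, Gmnn at 225 ± 16.4 and Mcm10 at 176 ± 13.2. Neighbours in this order overlapped between libraries from Mcm3 to Mcm5 and from Cdt1 to Gmnn, and did not overlap elsewhere.

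In Prmt5sKO the order of levels per kilobase began with Mcm4 at 549 ± 52.1 (SD, n = 2) and Mcm7 at 510 ± 75.6. Mcm3 at 442 ± 28.9, Mcm5 at 430 ± 14 and Mcm6 at 415 ± 48.1 followed, and neighbours among these 5 overlapped. Mcm2 was at 252 ± 33.2, Gmnn at 108 ± 15.1, Mcm10 at 66.6 ± 4.89, Cdc6 at 65.5 ± 14.4 and Cdt1 at 51.3 ± 2.15, and of these the values of Mcm10 and Cdc6 overlapped. Cdt1 was thus at rank 7 in Ctrl and rank 10 in Prmt5sKO, while Gmnn was at rank 9 in Ctrl and rank 7 in Prmt5sKO. With the longest transcript as length Cdt1 went from rank 8 to rank 10 and Gmnn was at rank 7 in both groups, so the move of Gmnn depended on length, as did the low place of Mcm2. The Mcm2 exon union of 6956 bases is far longer than its longest transcript of 3494 bases, and with the longest transcript of each gene Mcm2 was at rank 5 in Ctrl with 1133, close to Mcm4 with 1135, and Mcm7 was at rank 1 with 1684.

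The 6 subunits kept similar proportions to each other. They summed to 25354 and 27474 normalized counts in Ctrl and 10752 and 11837 in Prmt5sKO, or 0.159% and 0.164% of all recovered reads against 0.0740% and 0.0743%. Across the 4 libraries the share of the per-kilobase sum was 9.16% to 10.2% for Mcm2, 15.3% to 16.9% for Mcm6, 16.3% to 17.6% for Mcm5 and 18.3% to 20.9% for Mcm7. Mcm3 held 19.2% and 20.3% in Ctrl and 16.9% and 17.1% in Prmt5sKO. Mcm4 held 18.5% and 18.8% in Ctrl and 23.5% and 19.0% in Prmt5sKO, so that its higher share was mostly that of the deeper library. These shares use the exon union as length, and the low share of Mcm2 depended on it. In Ctrl the highest subunit was 2.12 times the lowest with the exon union and 1.59 times with the longest transcript.

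Cdt1 and Cdc6 were low even relative to the helicase. The log2 ratio of the Cdt1 level per kilobase to the geometric mean of Mcm2 to Mcm7 was -2.23 and -1.80 in Ctrl and -2.92 and -3.14 in Prmt5sKO, a difference of -1.02. For Cdc6 it was -2.12 and -1.89 in Ctrl and -2.86 and -2.54 in Prmt5sKO, a difference of -0.69. The groups did not overlap for either gene. For Gmnn, the ratio was -2.0 and -2.27 in Ctrl and -2.04 and -1.89 in Prmt5sKO, and the groups overlapped. Mcm3 differed by -0.21 and Mcm5 by -0.08 without overlap. Mcm10 differed by -0.17 and Mcm4 by 0.18, and their groups only just missed each other, with the nearest libraries at -2.508 and -2.514 for Mcm10 and at 0.215 and 0.219 for Mcm4.

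The ratio of Cdt1 to its inhibitor Gmnn, as levels per kilobase on a linear scale, was 0.854 and 1.38 in Ctrl and 0.542 and 0.419 in Prmt5sKO. On the log2 scale the means differed by -1.19. For Cdc6 over Gmnn the difference was -0.87 without overlap, and for Cdt1 over Cdc6 it was -0.32 with overlapping groups. In all, 13 ratios were compared by an exact two-sided permutation test over the libraries. In that exact permutation test each ratio whose groups did not overlap had p = 0.333, the smallest that 2 against 2 libraries allow, and 0.542 after Benjamini-Hochberg adjustment.

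**Figure D4:**
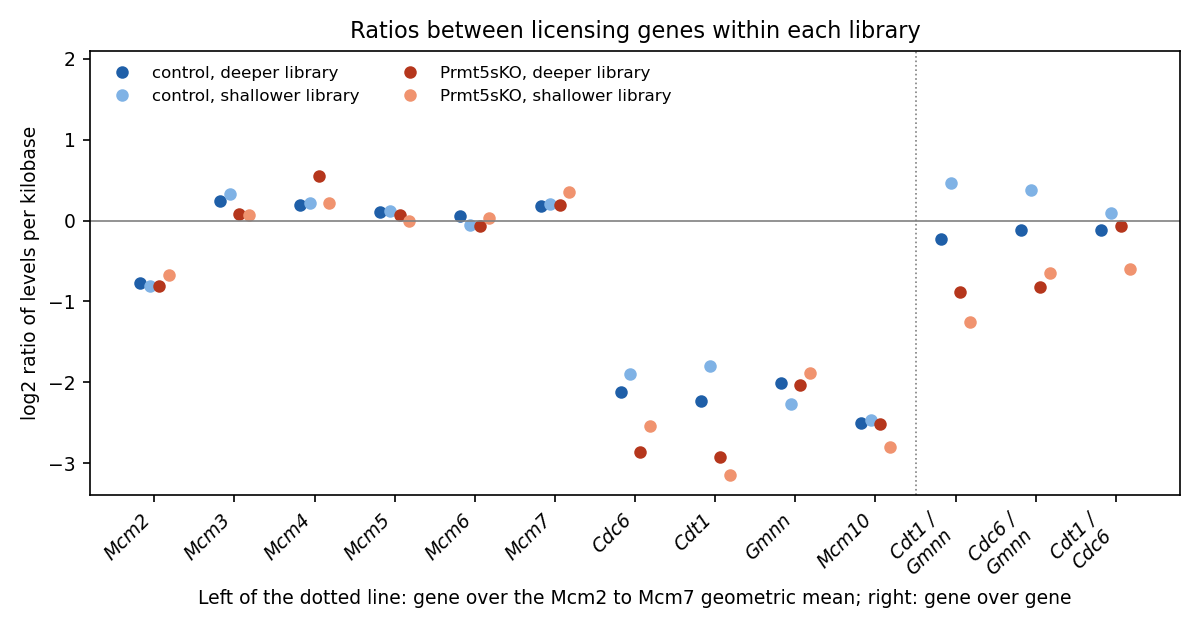
Log2 ratios of levels per kilobase in each library, for each of the 10 genes over the geometric mean of Mcm2 to Mcm7 on the left and for 3 pairs of genes on the right. Cdt1 and Cdc6 are lower in both Prmt5sKO libraries against the helicase and against Gmnn, while the ratios of Gmnn, Mcm2, Mcm6 and Mcm7 to the helicase overlap between groups.

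Of the other genes of origin licensing and firing, 36 of a list of 38 were tested, with a median log2 fold change of -0.91. None passed the adjusted threshold in the main limma-voom fit, as for all genes. At an unadjusted p under 0.05 in that fit, 22 were lower, against 6.97% of all genes tested, and 0 were higher. Both Prmt5sKO libraries were below both Ctrl libraries for 27 of the 36, and 17 were at least 2-fold lower, against the 23.6% and 8.99% of all genes given above. Of the relatives of geminin, Gmnc was not listed and Mcidas, with at most 3.32 normalized counts, was under the filter.

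The 8 origin recognition genes were unequal, with a median log2 fold change of -0.04. Kat7, a histone acetyltransferase that acts with Cdt1 at origins, had 2063 and 2147 normalized counts in Ctrl and 2036 and 2015 in Prmt5sKO (log2 fold change -0.06, SE 0.19). Lrwd1, which binds and holds the complex on chromatin, had 1223 and 1336 in Ctrl and 871 and 730 in Prmt5sKO (log2 fold change -0.67, SE 0.21). The subunits of the complex themselves were looked at after their values were seen. Orc1 had 270 and 336 in Ctrl and 121 and 116 in Prmt5sKO, and Orc6 had 641 and 721 against 257 and 292, log2 fold changes of -1.33 (SE 0.32) and -1.31 (SE 0.24). The other 4 subunits had log2 fold changes of -0.02 for Orc2, 0.09 for Orc5, 0.23 for Orc3 and 0.94 for Orc4. The value of Orc4 rested largely on the deeper Prmt5sKO library, with 1468 normalized counts against 680 in the shallower one and 518 and 535 in Ctrl.

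Of the 4 other MCM genes, 3 were lower at an unadjusted p under 0.05, with a median log2 fold change of -0.87 over the 4. Mcmbp, whose product binds free MCM subunits, had 1867 and 2223 normalized counts in Ctrl and 1190 and 1234 in Prmt5sKO (log2 fold change -0.75, SE 0.21). Mcm8, which works with Mcm9 in recombination, had 451 and 494 in Ctrl and 271 and 199 in Prmt5sKO (-1.0, SE 0.28). Both genes had groups that did not overlap.

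Among the 15 genes that switch the loaded helicase on, 14 were lower in both Prmt5sKO libraries and 12 at an unadjusted p under 0.05, with a median log2 fold change of -1.15. Topbp1, a scaffold for helicase activation and checkpoint signalling, had 3733 and 4743 normalized counts in Ctrl and 2316 and 1885 in Prmt5sKO (-1.01, SE 0.23). Pole, the catalytic subunit of the leading strand polymerase, had 2175 and 2961 in Ctrl and 783 and 759 in Prmt5sKO (-1.72, SE 0.24). The only gene of this group whose libraries overlapped, named after its values were seen, was Mtbp, a partner of the firing factor Ticrr, with 691 and 1077 in Ctrl and 768 and 516 in Prmt5sKO.

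The 9 genes of the turnover of Cdt1, Cdc6 and geminin had a median log2 fold change of -0.44, with 4 lower at an unadjusted p under 0.05. The most abundant were shared parts of ubiquitin ligases. Ddb1, the adaptor of the Cul4 ligase, had 20873 and 19258 normalized counts in Ctrl and 17501 and 21704 in Prmt5sKO (-0.04, SE 0.23), and Cul4a, its backbone, had 3440 and 3481 in Ctrl and 3778 and 3842 in Prmt5sKO (0.14, SE 0.19). Dtl, the receptor through which this ligase marks Cdt1 for destruction, was among the 4 lower genes, named after its values were seen, with 1182 and 1357 in Ctrl and 458 and 603 in Prmt5sKO (-1.28, SE 0.24). The other 3 were Fbxo5, an inhibitor of the anaphase-promoting complex, at -1.44 (SE 0.23), Skp2 at -1.19 (SE 0.28) and Ccnf at -0.80 (SE 0.21), both substrate receptors of SCF ubiquitin ligases.

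**Figure D5:**
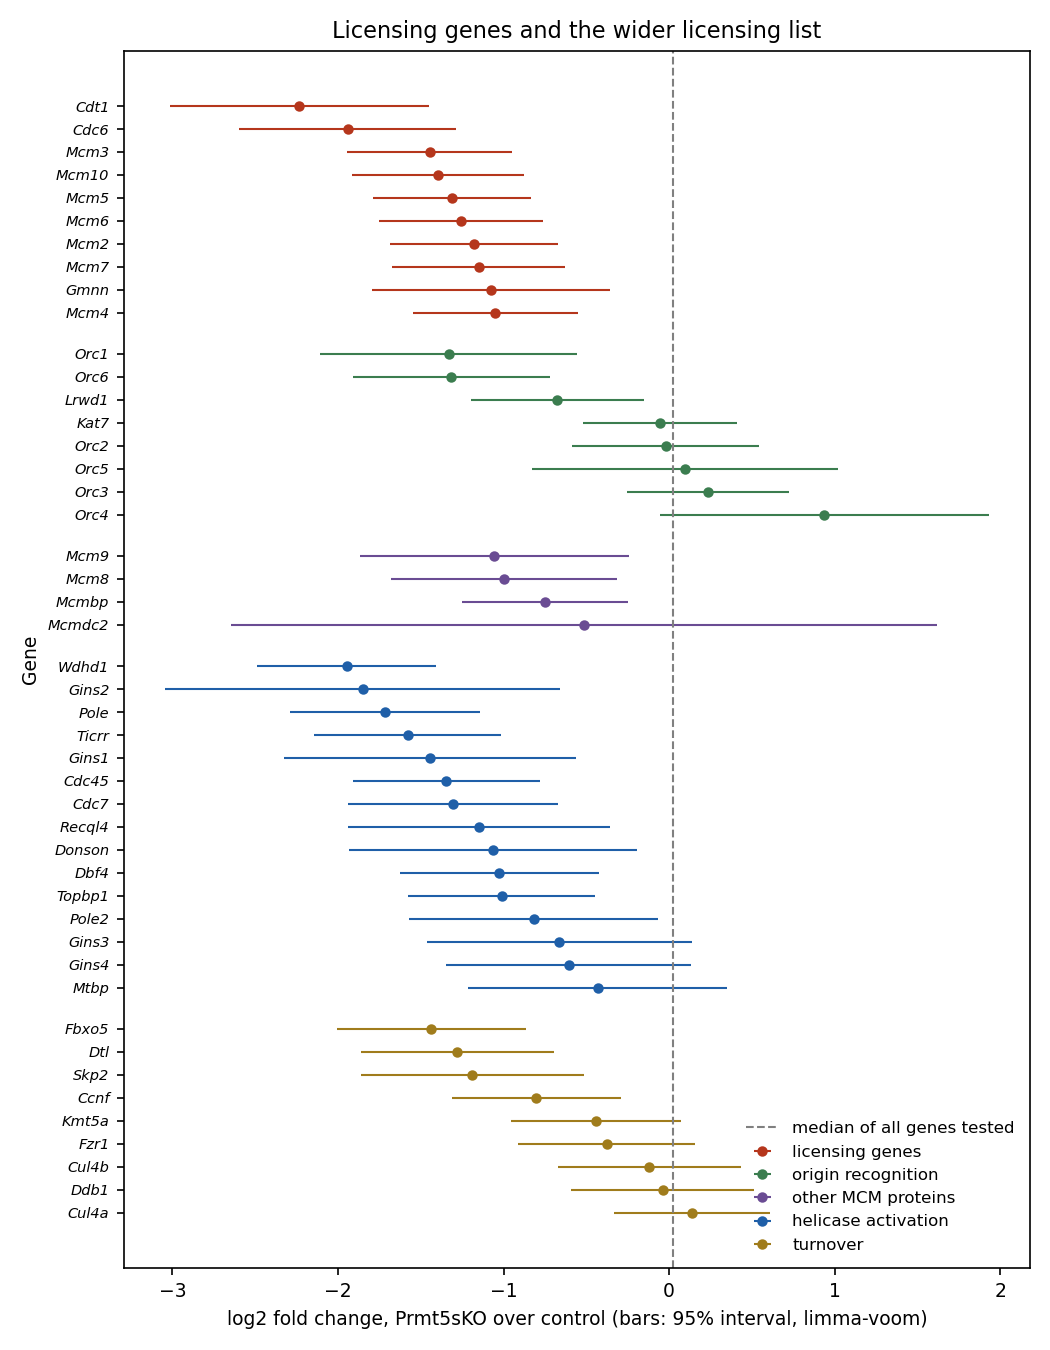
Log2 fold changes (Prmt5sKO over Ctrl) with 95% intervals from limma-voom, for the 10 licensing genes and the 36 tested genes of the wider list by role, with a dashed line at the median of all genes tested, 0.02. The intervals of the 10 genes and of 22 of the 36 lie below 0, and the others, such as those of Kat7, Orc2 and Ddb1, cross it.

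Mcm4 has a close neighbour that starts in the opposite direction and was not lower in these libraries. The start of Prkdc, which encodes the catalytic subunit of DNA-dependent protein kinase, lies 466 bases from that of Mcm4 in GENCODE M21. Prkdc had 735 and 849 normalized counts in Ctrl and 1255 and 891 in Prmt5sKO, a log2 fold change of 0.43 (SE 0.26, unadjusted p = 0.145 and adjusted p = 0.50 with limma-voom), against -1.05 for Mcm4. The groups of Prkdc only just missed each other, with the nearest libraries at 849 and 891, and its higher mean rested largely on the deeper Prmt5sKO library. Ap4m1, which starts opposite to Mcm7 and overlaps it, had 515 and 368 in Ctrl and 549 and 418 in Prmt5sKO (log2 fold change 0.14, SE 0.29), against -1.15 for Mcm7.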

How the data were processed

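The authors sequenced rRNA-depleted RNA on the Ion Torrent Proton, trimmed the reads with Reaper, aligned them to GRCm38 with STAR (2.4.0a in the submitters' processing notes), made gene counts and ran DESeq2 (1.62 there). The gene counter and its strand setting are not given in the sources used here. What the authors deposited per group is a signal, the average of its 2 libraries after division by size factors, with an average over all 4 beside it. The deposited table also holds the authors' fold changes, standard errors and p-values, which were not used.

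Each such average is made of a whole number of steps from either library, which gave back whole counts per library for 100.0% of 20065 genes, with largest relative residuals of 5.3e-15 in Ctrl and 5.8e-15 in Prmt5sKO (tolerance 1e-13) and 0 genes with a second solution, and the recovery was checked on simulated libraries. The columns carry no replicate numbers, so libraries are named by depth. edgeR was not run, and what it would call on the recovered counts was not examined. Counts were scaled by TMM from own code (trims of 30% and 5%), genes averaging 5 or more normalized counts entered the test, and groups were compared with limma-voom (limma 3.58.1, R 4.3.3) with Benjamini-Hochberg adjustment over 16153 genes, tested on simulated counts. Called genes met an adjusted p threshold of 0.05 and a fold threshold of 2. The methods state 2 libraries per sequencing run but not which shared one, so a run could not be used as a batch.

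Symbols, exon unions and coordinates came from GENCODE M21 on GRCm38, which held 19782 of the identifiers, and promoter windows from RefSeq. The 10 genes, the wider list and the marker lists were chosen with earlier results of these data known. From each role of the wider list the 2 genes with the highest mean normalized count were named, with any that moved against its role at an unadjusted p under 0.05, and others only where said. Alternatives were other scalings, no filter, limma-trend with pseudocounts of 1 and 5, a replicate block, leaving out each library, and another gene length.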

Additional observations from a re-analysis of the deposited data

How the results depend on the processing

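All 10 licensing genes kept a negative log2 fold change under the 12 alternatives to the main fit, and no result reversed. Their adjusted p ran from 0.0212 to 0.968 with limma, so that whether a gene passed rested on the setting. The authors' size factors, upper-quartile scaling, no filter and limma-trend with either pseudocount gave 0 called genes. Scaling by library size alone moved the median of all genes from 0.02 to 0.13, that of the 10 genes to -1.18 and that of the wider list to -0.81, while the distance of the 10 genes from all genes was -1.31 against -1.30 in the main fit.

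Leaving out 1 library at a time gave 0 to 480 called genes, 0 to 7 of the 10 and 0 to 4 of the wider list. The counts were 0 without either Ctrl library, 54 genes and 1 of the 10 without the shallower Prmt5sKO library, and 480 and 7 without the deeper one. The median of the 10 genes then ran from -1.33 to -1.21 and that of the wider list from -1.04 to -0.79. With the longest transcript as length, the highest level per kilobase in Ctrl was 6.25 times the lowest, against 6.86 with the exon union.

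The labels number the replicates of both groups, but the deposited columns do not, so both possible pairings were run. Across 10273 genes the deeper-minus-shallower differences of the groups correlated at -0.35. A replicate block that paired the deeper libraries called 0 genes. The crossed replicate block called 334 genes, 9 of the 10 (not Gmnn) 6 of the wider list, all 6 lower, and Prmt5. In that fit 154 genes were called lower, 0.953% of those tested. Which pairing is right is not known from these columns. The 10 genes had at least 159 reads in each library, and 2 libraries per group limit every test.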
